A study of Rattus norvegicus with 14 samples.

Results

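The genes described here are the amino acid transporter genes of cultured rat aortic smooth muscle cells, taken as every gene whose symbol begins with Slc1a, Slc3a, Slc6a, Slc7a, Slc36a, Slc38a or Slc43a and a number. The rule took 59 of the 17312 genes in the deposited tables, and 26 of them were expressed enough to be tested. It goes by family and not by substrate. It therefore also took carriers of serotonin (Slc6a4), taurine (Slc6a6) and creatine (Slc6a8), and Slc7a6os, a neighbour of Slc7a6 that does not encode a carrier. The cells came from a commercial supplier and were kept without serum for 24 h before any treatment. Polyadenylated RNA was sequenced from 14 libraries in 5 groups. They were JQ1 plus PDGF for 24 h (3 libraries), PDGF for 24 h (3), JQ1 plus PDGF for 2 h (3), PDGF for 2 h (3) and unstimulated cells at 0 h (2). PDGF, a mitogen of smooth muscle, was given at 925 ng/ml. JQ1, which displaces BET bromodomain proteins from acetylated histones, was given at 500 nM from 3 h before PDGF. Cells with JQ1 and no PDGF, and unstimulated cells at later times, were not analysed here, so PDGF and time in culture cannot be told apart. The letters in the sample titles differ between cells with and without JQ1, and whatever they mark and JQ1 itself cannot be told apart. The labels do not say whether replicates came from separate cultures. The spread behind the p-values is that between these samples and may be technical alone.

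Amino acids cross membranes on a few families of carriers. In the heteromeric carriers, a light chain of the Slc7 family carries the substrate and a single-pass heavy chain, Slc3a2 (CD98) or Slc3a1 (rBAT), brings it to the cell surface. Exchangers such as Slc7a5 bring in leucine against glutamine that other carriers have concentrated in the cell, while Slc36 and some Slc38 members sit on the lysosome and feed the mTORC1 growth pathway. When amino acids run short, the transcription factor ATF4 raises many of these genes through a C/EBP-ATF response element, and in smooth muscle uptake of arginine, proline and glycine serves nitric oxide, polyamine and collagen synthesis.

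Promoter stretches of Slc7a1 and Slc1a4, which rose early after PDGF, are shown because both hold the letters of that response element. The motif TGATGNAAN was searched on both strands in the RefSeq promoter windows of build GRCr8, which reach from 250 bases before to 50 bases after each transcript start. It was in 1328 of 33469 windows (3.97%), and 1137 of the 27457 genes with a window held it (4.14%). Windows were found for 45 of the 59 members, and 3 of these genes held it (Slc38a1, Slc7a1 and Slc1a4). Of the 9 members that rose after 2 h of PDGF, 8 had a window and 2 held it. The stretches are given 5′ to 3′ on the strand of the gene, with the motif in capitals. For Slc7a1 the stretch is chr12:11664428-11664487 on the plus strand, with the motif from -30 to -22 relative to the start. For Slc1a4 it is chr14:98761753-98761812 on the minus strand, with the motif as its reverse complement from -236 to -228. A match describes letters and not binding, and a window without one lacks only these letters.
Slc7a1: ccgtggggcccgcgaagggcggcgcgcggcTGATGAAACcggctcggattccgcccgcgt
Slc1a4: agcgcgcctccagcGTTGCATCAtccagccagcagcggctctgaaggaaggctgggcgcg

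Levels are the authors' normalised FPKM, fragments relative to transcript length and sequencing total with a further adjustment. Judged from the values, that adjustment was to spike-in transcripts, and the levels are called the spike-in scale here. No source used here states its method. Differences are in log2(normalised FPKM + 1) with the SE of one limma fit over all 14 libraries, a scale that understates changes of low genes. A gene was called at a Benjamini-Hochberg adjusted p under 0.05 over 10133 genes. The depth of the libraries is unknown, and 9901 to 11503 genes were above 0 in each. On the spike-in scale the median over all genes lay at 0.01 after 2 h of PDGF and 0.41 after 24 h, each against 0 h, at 0.40 for 24 h against 2 h, and at -0.29 and -0.48 with JQ1 at 2 h and 24 h. Counts are therefore also given on a scale centred on the median. A member's centred value is given where centring ended its call, and for members that it newly called against 0 h or with JQ1 at 2 h or 24 h. In PDGF 2 h replicate 1 the authors' adjustment moved genes of 0.5 to 2 FPKM up by 0.902 (log2) and genes of at least 50 FPKM by 0.0186, so low genes stand high in that library. PDGF 24 h replicate 0 also had low genes moved up more, by 0.945 against 0.432. The 8 smooth muscle markers summed to 438 to 615 FPKM in JQ1 plus PDGF 24 h libraries and 2130 to 2360 in PDGF 24 h libraries. They summed to 13900 to 14800 with JQ1 plus PDGF at 2 h, 11200 to 14700 with PDGF at 2 h and 9840 to 11900 in unstimulated cells. The markers Cdh5 (endothelium), Ptprc (leukocytes), Dpt (fibroblasts), Cdh1 (epithelium) and Rbfox3 and Snap25 (neurons) were at 0 in all 14 libraries. Other markers of the same cell types were above 0. In unstimulated cells the endothelial markers summed to 42.9 to 47.9 FPKM and the fibroblast markers to 121 to 128. The leukocyte markers summed there to 13.9 to 18.1 FPKM and the epithelial markers to 10.5 to 12.4. In such bulk samples fewer cells of a type and less RNA per cell cannot be told apart.

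Of the 33 members that were not tested, 15 were listed at 0 in every library, among them the dopamine and noradrenaline carrier genes Slc6a3 and Slc6a2 and the glycine carrier gene Slc6a5. The other 18 were above 0 in some library but reached at most 1.23 normalised FPKM (Slc38a8) and 1.05 (Slc7a3). Slc38a1, one of the genes with the promoter motif, was above 0 in 1 library, at 0.0397 unnormalised FPKM. Of the 26 tested members, 9 lay under 1 FPKM in some library, and these had to be higher elsewhere to be tested at all. Every one of the 26 was called in at least 1 of the 6 comparisons, as were 85% of all genes tested. The order of levels, which FPKM allows between genes, shifted with treatment. The glutamine and alanine carrier gene Slc38a2 led at 24 h, with 143 ± 16.1 FPKM in JQ1 plus PDGF cells and 150.0 ± 8.13 in PDGF cells (SD, n = 3 each). At 2 h Slc7a5 led in JQ1 plus PDGF cells with 162 ± 16.8 FPKM, and Slc3a2 led in PDGF cells with 211 ± 31.9 (SD, n = 3 each). In unstimulated cells the taurine carrier gene Slc6a6 stood highest, at 119 ± 25.1 (SD, n = 2).

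**Figure D1:**
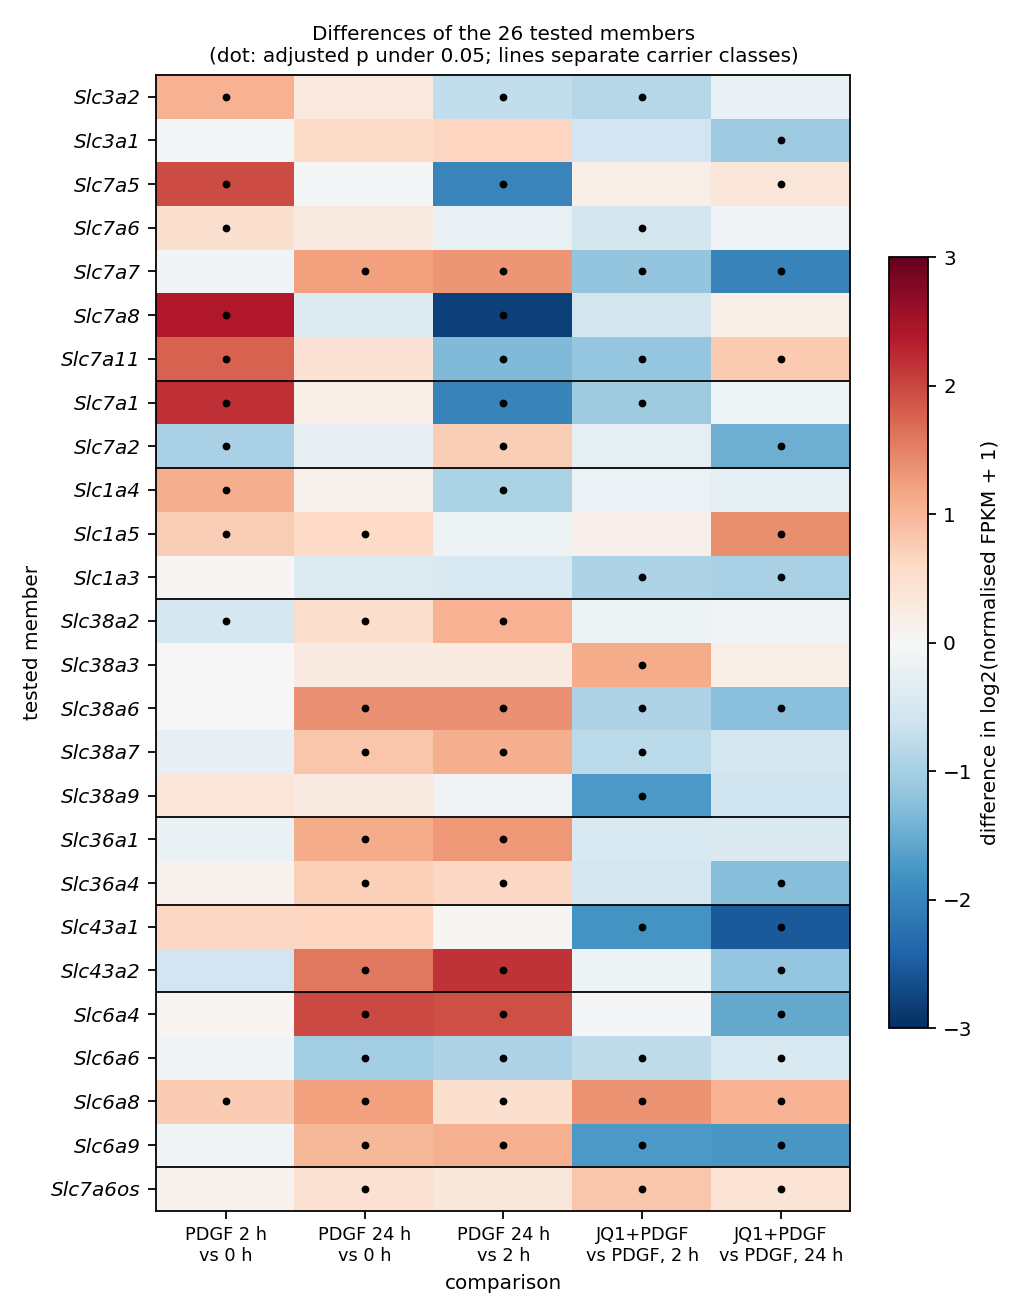
Differences of the 26 tested members (rows, grouped by carrier class) in 5 comparisons (columns), as log2(normalised FPKM + 1) of the first-named group minus the second, with a dot where the limma adjusted p is under 0.05. Slc7a5, Slc7a8, Slc7a11 and Slc7a1 were higher at 2 h of PDGF and lower at 24 h than at 2 h, and the blocks for Slc43a1, Slc6a9 and Slc7a7 were lower with JQ1 at both times.

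After 2 h of PDGF, the light chain genes Slc7a5, Slc7a6, Slc7a8 and Slc7a11 rose together with their heavy chain gene Slc3a2. Of the 2 cationic carrier genes Slc7a1 rose and Slc7a2 fell. In limma 9 of 26 members rose (34.6%, against 17.7% of all genes tested) and 2 fell (7.69%, against 12.7% of all genes). Centring on the median gave 9 that rose (34.6%, against 20.4% of all genes) and 3 that fell (11.5%, against 19.4%). The third that fell was Slc43a2 (-0.66). The median difference of the members was 0.07, close to the 0.01 of all genes. Of the 7 heteromeric subunits 5 rose, and of the 5 sodium-coupled neutral carriers Slc38a2 fell. Epithelial markers and the neural marker Gfap stood higher too, while the fibroblast markers stood lower. The 3 epithelial markers summed to 24.1 to 31.7 FPKM at 2 h and 10.5 to 12.4 at 0 h, with 2 of 2 tested called higher. The 3 neural markers summed to 2.01 to 5.88 at 2 h and 0.319 to 0.357 at 0 h. With Rbfox3 and Snap25 at 0 throughout, Gfap was the 1 tested, and it was called higher. The 5 fibroblast markers summed to 99.7 to 120 at 2 h and 121 to 128 at 0 h, with 1 of 3 tested called lower. Their part in the members' differences was not tested. The 9 members that rose are given with all 3 times of the PDGF cells, because those times share libraries across comparisons and cannot be counted against each other.

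Slc7a5 (LAT1), which brings in leucine and other large neutral amino acids, had 34.3 and 37.5 FPKM in unstimulated cells, 124, 138 and 164 at 2 h of PDGF and 34.0, 33.3 and 38.6 at 24 h. Every 2 h library lay above every other of these. The difference of 2 h against 0 h was 1.95 ± 0.15 (limma, adjusted p = 1.09e-07) and that of 24 h against 2 h -1.97 ± 0.14 (adjusted p = 2.76e-08). Its heavy chain gene Slc3a2 had 101 and 101 FPKM at 0 h, 203, 185 and 247 at 2 h and 135, 117 and 123 at 24 h. It rose by 1.05 ± 0.13 at 2 h (limma, adjusted p = 2.03e-05) and was lower at 24 h than at 2 h (-0.75 ± 0.12, adjusted p = 9.71e-05). The light chain gene Slc7a8 (LAT2), another leucine and small neutral amino acid exchanger, changed most of all members at 2 h. It had 2.44 and 2.55 FPKM at 0 h, 16.3, 15.4 and 21.0 at 2 h and 2.30, 1.32 and 1.40 at 24 h, so that the 2 h libraries stood clear of both other times. Slc7a8 rose by 2.40 ± 0.24 (limma, adjusted p = 1.93e-06) and its 24 h level lay -2.80 ± 0.22 from that at 2 h (adjusted p = 8.03e-08).

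Slc7a11 (xCT) imports cystine, the oxidised form of cysteine, in exchange for glutamate. It stood low, at 1.08 and 1.05 FPKM at 0 h, 5.52, 7.32 and 5.37 at 2 h and 1.70, 1.91 and 1.81 at 24 h. The groups did not overlap, and the difference at 2 h was 1.76 ± 0.22 (limma, adjusted p = 1.61e-05), followed by -1.32 ± 0.19 at 24 h against 2 h (adjusted p = 4.94e-05). Slc7a6 (y+LAT2), which exchanges arginine for glutamine, rose by 0.48 ± 0.16 at 2 h (adjusted p = 0.036). The Slc7a6 call was lost without unstimulated replicate 0 (0.31, adjusted p = 0.343), PDGF 2 h replicate 1 (0.42, adjusted p = 0.0829) or PDGF 2 h replicate 2 (0.50, adjusted p = 0.0577).

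The arginine carrier gene Slc7a1 (CAT1), whose promoter stretch is printed above, had 14.1 and 17.0 FPKM at 0 h, 59.6, 92.6 and 75.1 at 2 h and 16.7, 17.6 and 19.1 at 24 h. The 2 h libraries were all above the rest, with a rise of 2.20 ± 0.18 (limma, adjusted p = 1.62e-07) and a difference of 24 h against 2 h of -2.01 ± 0.16 (adjusted p = 1.19e-07). The other cationic carrier gene, Slc7a2 (CAT2), went the other way. It had 30.5 and 29.7 FPKM at 0 h, 10.1, 19.2 and 16.6 at 2 h and 26.3, 22.6 and 27.2 at 24 h, with differences of -0.98 ± 0.25 at 2 h against 0 h (adjusted p = 0.00874) and 0.73 ± 0.23 at 24 h against 2 h (adjusted p = 0.012). All 2 h libraries of Slc7a2 lay below both other times. The fall at 2 h was lost without unstimulated replicate 0 (-0.96, adjusted p = 0.0651), and the later rise without PDGF 2 h replicate 0 (0.48, adjusted p = 0.0689) and on the median-centred scale (0.35, adjusted p = 0.124).

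Among the neutral exchangers, Slc1a4 (ASCT1), a carrier of alanine, serine and cysteine, had 56.8 and 76.7 FPKM at 0 h, 123, 127 and 180.3 at 2 h and 65.4, 73.7 and 79.6 at 24 h. It rose by 1.09 ± 0.19 at 2 h (limma, adjusted p = 0.000534) and was lower at 24 h than at 2 h (-0.95 ± 0.17, adjusted p = 0.000279). Its relative Slc1a5 (ASCT2), a main route of glutamine entry in growing cells, had 17.5 and 13.8 FPKM at 0 h, 23.1, 24.8 and 32.9 at 2 h and 22.4, 21.6 and 28.8 at 24 h. The Slc1a5 libraries of 2 h and 24 h overlapped each other and lay above those of 0 h. Slc1a5 was higher than at 0 h by 0.74 ± 0.18 at 2 h and by 0.60 ± 0.18 at 24 h (adjusted p = 0.00588 and 0.0141). Both calls were lost without unstimulated replicate 1 (0.58, adjusted p = 0.0856 at 2 h and 0.44, adjusted p = 0.149 at 24 h), and the later one also without PDGF 24 h replicate 2 (0.47, adjusted p = 0.0632) and on the median-centred scale (0.16, adjusted p = 0.453).

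The creatine carrier gene Slc6a8 went up at each time, with 20.4 and 21.1 FPKM at 0 h, 31.6, 34.7 and 41.6 at 2 h and 54.0, 48.1 and 48.7 at 24 h. None of the 3 times overlapped. Its differences from 0 h were 0.76 ± 0.14 at 2 h and 1.23 ± 0.14 at 24 h (limma, adjusted p = 0.000958 and 8.74e-06). The difference of 24 h against 2 h was 0.48 ± 0.13, and 0.09 on the median-centred scale, where it was not called. Slc38a2 (SNAT2), a sodium-coupled carrier that cells are known to raise when amino acids are short, had 97.7 and 109.6 FPKM at 0 h, 61.9, 72.8 and 81.5 at 2 h and 149.6, 142 and 158 at 24 h. It fell at 2 h (-0.52 ± 0.14, adjusted p = 0.0103) and stood higher at 24 h than at 0 h (0.53 ± 0.14, adjusted p = 0.00666). The fall was lost without unstimulated replicate 1 (-0.44, adjusted p = 0.102) and the rise without unstimulated replicate 0 (0.45, adjusted p = 0.0845). Centred on the median, the 24 h difference of Slc38a2 was 0.07 and was not called.

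**Figure D2:**
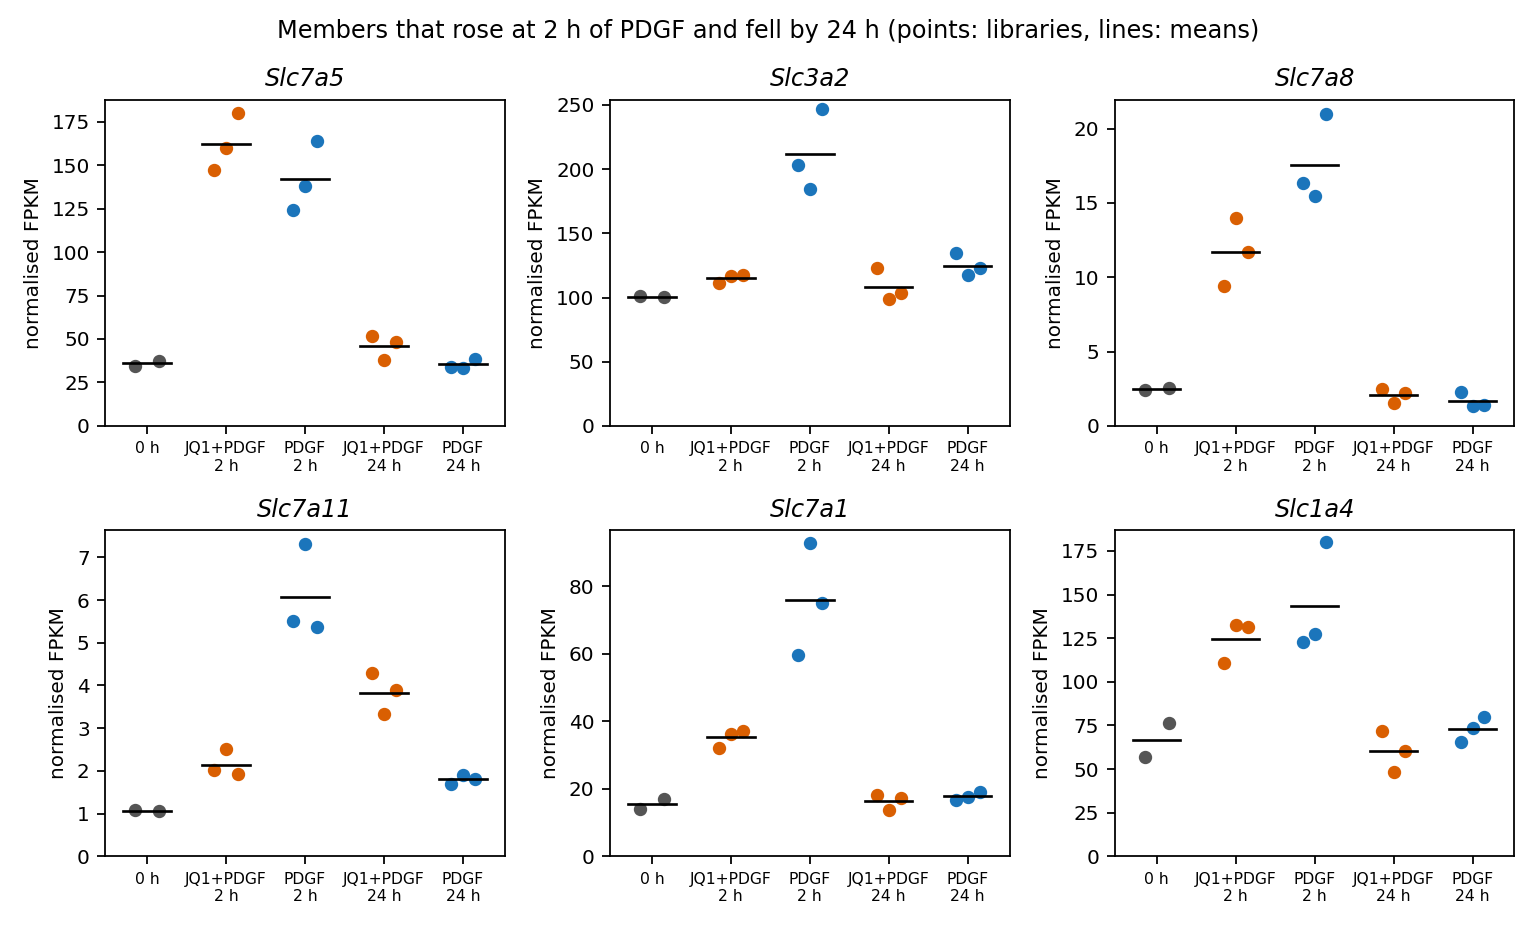
Normalised FPKM of 6 members in each library (points) with group means (lines), in cells at 0 h, JQ1 plus PDGF and PDGF at 2 h, and JQ1 plus PDGF and PDGF at 24 h. These 6 members were chosen as called higher at 2 h of PDGF than at both 0 h and 24 h. By this choice the PDGF 2 h libraries lie above both unstimulated and PDGF 24 h libraries in all 6 panels. The JQ1 plus PDGF 2 h points fall below PDGF 2 h for Slc3a2, Slc7a8, Slc7a11 and Slc7a1 and overlap it for Slc7a5 and Slc1a4.

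At 24 h of PDGF the members that rose included lysosomal and proton-coupled carriers, a facilitative carrier and the carriers of glycine, creatine and serotonin. In limma 12 of 26 members rose against 0 h (46.2%, against 37.7% of all genes tested) and Slc6a6 alone fell (3.85%, against 4.85%), so the share that rose lay near that of all genes. Centring on the median gave 6 higher (23.1%, against 14.8% of all genes) and 5 lower (19.2%, against 13.4%). Beside Slc6a6, those lower were Slc1a3 (-0.72), Slc7a2 (-0.68), Slc7a5 (-0.47) and Slc7a8 (-0.72). The members' median was 0.49 beside 0.41 for all genes. Against 2 h, 11 members were higher at 24 h (42.3%, against 44.5% of all genes) and 7 lower (26.9%, against 11.8%). On the median-centred scale 8 were higher (30.8%, against 26.6% of all genes) and 10 lower (38.5%, against 25.8%). The median of that comparison was 0.30 for the members and 0.40 for all genes. Both comparisons use the PDGF 24 h libraries. Summed markers of several other cell types also stood higher at 24 h than at 0 h. The 6 endothelial markers summed to 120 to 144 FPKM at 24 h and 42.9 to 47.9 at 0 h, the 5 leukocyte markers to 50.2 to 73 at 24 h and 13.9 to 18.1 at 0 h, and the 3 epithelial markers to 31.6 to 36.6 at 24 h and 10.5 to 12.4 at 0 h. Of those tested, 2 of 2, 1 of 2 and 1 of 2 were called higher. The 5 fibroblast markers summed to 132 to 150 FPKM at 24 h and 121 to 128 at 0 h, with 1 of 3 tested called higher. Of the 8 smooth muscle markers, 6 were called lower and 0 higher. The part of these cell types in the members' differences was not tested.

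Slc43a2 (LAT4), which lets branched-chain amino acids and phenylalanine pass without an ion gradient, had 1.09 and 1.16 FPKM at 0 h, 0.426, 0.313 and 0.570 at 2 h and 6.39, 6.50 and 3.75 at 24 h. Its 24 h libraries stood above all others of the PDGF series, with 1.59 ± 0.26 against 0 h (limma, adjusted p = 0.000244) and 2.16 ± 0.24 against 2 h. Slc7a7 (y+LAT1), a light chain that moves arginine out in exchange for neutral amino acids, had 2.86 and 2.60 FPKM at 0 h, 2.12, 2.16 and 3.33 at 2 h and 7.91, 7.76 and 7.76 at 24 h. The 24 h libraries of Slc7a7 lay close together and above the rest (1.24 ± 0.26 against 0 h, adjusted p = 0.00166). Slc6a9 (GlyT1), the glycine carrier, had 19.6 and 22.3 FPKM at 0 h, 16.1, 21.8 and 21.8 at 2 h and 43.9, 40.9 and 42.6 at 24 h. It rose by 0.99 ± 0.23 against 0 h (adjusted p = 0.00304), and on the median-centred scale by 0.55, where it was not called.

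Slc6a4, the serotonin carrier gene, was listed at 0 unnormalised FPKM in both unstimulated libraries, at 0.0621, 0 and 0.0345 in the PDGF 2 h libraries and at 1.91, 2.98 and 2.40 in the PDGF 24 h libraries. It was called higher at 24 h than at 0 h (limma, adjusted p = 0.000183), with no fold given against a group at 0. Slc6a4 reached 1 normalised FPKM only in 24 h libraries, among them all of PDGF 24 h. It was therefore tested only because it is high there, and its p-values that use those libraries describe it and are no support. The taurine carrier gene Slc6a6 was the one member lower at 24 h, with 102 and 137 FPKM at 0 h, 91.8, 108 and 130.2 at 2 h and 52.3, 58.2 and 59.3 at 24 h. The 24 h libraries of Slc6a6 lay below all others of the series, at -1.05 ± 0.18 against 0 h (adjusted p = 0.000327).

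Of the lysosomal and proton-coupled carriers, Slc36a1 (PAT1), which exports small amino acids from lysosomes, had 3.44 and 4.70 FPKM at 0 h, 2.63, 3.30 and 4.41 at 2 h and 12.4, 9.74 and 7.75 at 24 h. Its rise at 24 h was 1.10 ± 0.24 (limma, adjusted p = 0.00188). Slc38a7 (SNAT7), a lysosomal glutamine exporter, had 13.3 and 12.0 FPKM at 0 h, 6.34, 16.7 and 10.4 at 2 h and 27.0, 20.7 and 22.5 at 24 h. Both were above all 0 h libraries at 24 h, and PDGF 2 h replicate 1 was the highest 2 h library of Slc38a7. The Slc38a7 difference of 0.83 ± 0.26 (adjusted p = 0.0185) was lost without unstimulated replicate 0 (0.91, adjusted p = 0.0675), unstimulated replicate 1 (0.76, adjusted p = 0.101) or PDGF 24 h replicate 0 (0.73, adjusted p = 0.0669), and on the median-centred scale (0.40, adjusted p = 0.207). Slc38a9, a lysosomal arginine sensor upstream of mTORC1, had 4.0 and 6.17 FPKM at 0 h, 3.74, 14.4 and 5.36 at 2 h and 8.44, 5.33 and 5.32 at 24 h. Its times overlapped and it was not called in the PDGF comparisons.

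Slc36a4 (PAT4), a high-affinity carrier of proline and tryptophan, had 3.36 and 4.10 FPKM at 0 h, 2.90, 5.61 and 3.93 at 2 h and 6.87, 6.85 and 6.61 at 24 h. It rose by 0.72 ± 0.24 against 0 h (limma, adjusted p = 0.0224), a call lost when any of 4 libraries was left out, namely unstimulated replicate 0 (0.61, adjusted p = 0.167) or 1 (0.84, adjusted p = 0.0509) and PDGF 24 h replicate 0 (0.71, adjusted p = 0.0502) or 1 (0.72, adjusted p = 0.0527). On the median-centred scale the Slc36a4 call was also lost, against 0 h (0.33, adjusted p = 0.197) and against 2 h (0.28, beside 0.63 as called). Slc38a6, a less studied member of the glutamine carrier family, had 2.51 and 3.64 FPKM at 0 h, 2.00, 5.91 and 2.16 at 2 h and 7.49, 11.3 and 9.89 at 24 h. It rose by 1.37 ± 0.34 against 0 h (adjusted p = 0.00451), and without unstimulated replicate 0 the value was 1.17, adjusted p = 0.0632. Slc7a6os rose by 0.45 ± 0.17 (adjusted p = 0.0444), a call lost when any of 9 single libraries was left out, furthest without unstimulated replicate 1 (0.18, adjusted p = 0.498), and its median-centred value was 0.02. Among the called differences of 24 h against 2 h were 1.37 for Slc38a6, 1.33 for Slc7a7, 1.30 for Slc36a1, 1.09 for Slc38a7, 1.07 for Slc6a9 and 1.05 for Slc38a2. No source used here says whether the authors' quantification used strand, so Slc7a6os and its neighbour Slc7a6 may share reads.

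**Figure D3:**
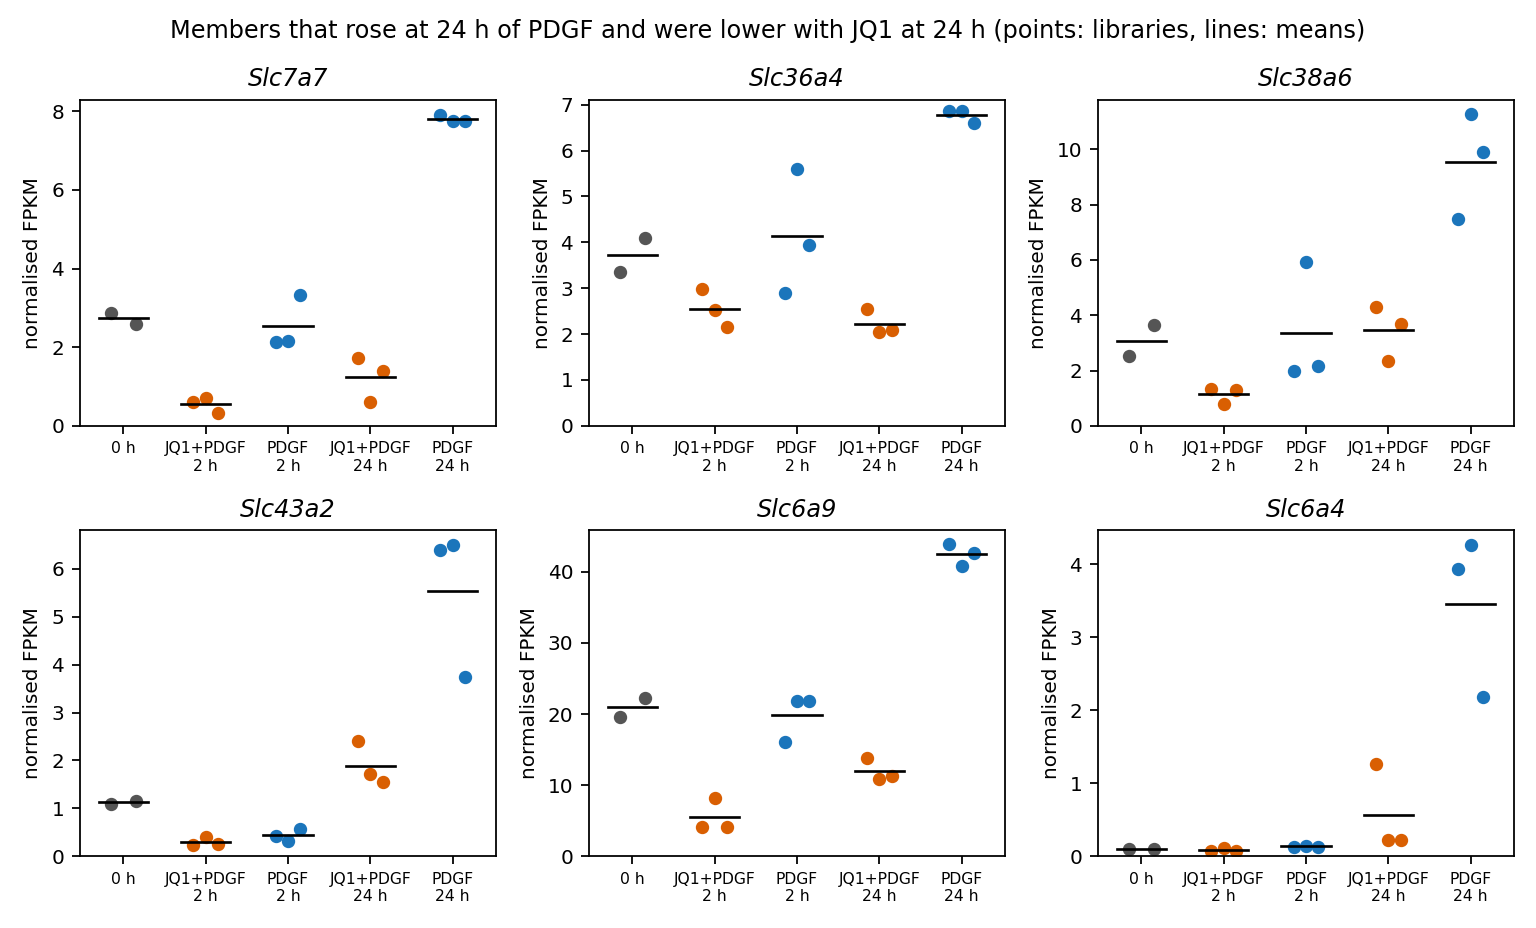
Normalised FPKM of 6 members in each library (points) with group means (lines), in the same 5 groups. These 6 members were chosen as called higher at 24 h of PDGF than at 0 h and lower with JQ1 at 24 h. By this choice the PDGF 24 h libraries, which both calls use, lie above the unstimulated and the JQ1 plus PDGF 24 h libraries. The means of JQ1 plus PDGF at 2 h are the lowest in every panel but that of Slc36a4. For Slc6a4 those libraries and the unstimulated ones were at 0 unnormalised FPKM.

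With JQ1 at 2 h the heavy chain gene Slc3a2 was lower, while its light chain gene Slc7a5 was not called. Most members called were lower, as were most genes called in the whole series (3449 lower and 734 higher). In limma 12 of 26 members were lower in JQ1 plus PDGF than in PDGF cells (46.2%, against 34% of all genes tested) and 3 were higher (11.5%, against 7.24%). Centring gave 10 lower (38.5%, against 21.5% of all genes) and 5 higher (19.2%, against 20.1%). It added Slc1a5 (0.47) and Slc7a5 to those higher. The median was -0.56 for the members and -0.29 for all genes. The PDGF 2 h libraries that this comparison uses are the same as in the comparison with 0 h. The endothelial markers summed to 17 to 19.5 FPKM in JQ1 plus PDGF cells and 39.4 to 58.4 in PDGF cells. The leukocyte markers summed to 5.91 to 9.1 in JQ1 plus PDGF cells and 16.5 to 26.3 in PDGF cells. For the epithelial markers it was 5.8 to 8.61 in JQ1 plus PDGF cells and 24.1 to 31.7 in PDGF cells. For the fibroblast markers it was 74.9 to 83.9 in JQ1 plus PDGF cells and 99.7 to 120 in PDGF cells. Of those tested, 1 of 2 endothelial, 1 of 2 leukocyte, 2 of 2 epithelial and 2 of 3 fibroblast markers were called lower. The neural marker Gfap was called lower, and of 8 smooth muscle markers 2 were lower and 1 higher. Their part in the members' differences was not tested.

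Slc3a2 had 111, 117 and 118 FPKM in JQ1 plus PDGF cells, against 203, 185 and 247 in PDGF cells. The groups did not overlap and the difference was -0.86 ± 0.12 (limma, adjusted p = 4.97e-05). Slc7a5 had 147, 159.8 and 180.3 FPKM in JQ1 plus PDGF cells, against 124, 138 and 164 in PDGF cells, with overlapping groups and a difference of 0.19 ± 0.14 (adjusted p = 0.275). The median-centred difference of Slc7a5 was 0.53 and was called higher. Slc7a11 had 2.02, 2.51 and 1.92 FPKM with JQ1 plus PDGF, against 5.52, 7.32 and 5.37 with PDGF, a difference of -1.16 ± 0.19 (adjusted p = 0.000256) with no overlap. Slc7a8 had 9.38, 14 and 11.7 FPKM with JQ1 plus PDGF, against 16.3, 15.4 and 21.0 with PDGF. Its groups did not overlap, but the difference of -0.55 ± 0.22 was not called (adjusted p = 0.051).

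Slc7a1 had 32.0, 36.3 and 37.2 FPKM in JQ1 plus PDGF cells, against 59.6, 92.6 and 75.1 in PDGF cells, and was lower, at -1.06 ± 0.16 (limma, adjusted p = 0.000103). Every JQ1 library of Slc7a1 was under every PDGF library. Slc43a1 (LAT3), a facilitative leucine carrier, had 2.16, 1.15 and 2.23 FPKM in JQ1 plus PDGF cells, against 6.95, 11.6 and 8.23 in PDGF cells and 4.56 and 6.20 in unstimulated cells. It had the largest difference of the members that were lower, -1.80 ± 0.26 (adjusted p = 7.12e-05), and its JQ1 libraries also lay under the unstimulated ones. Slc6a9 had 4.18, 8.25 and 4.11 FPKM in JQ1 plus PDGF cells, against 16.1, 21.8 and 21.8 in PDGF cells, a difference of -1.73 ± 0.21 (adjusted p = 1.26e-05). Slc7a7 had 0.611, 0.710 and 0.315 FPKM in JQ1 plus PDGF cells, against 2.12, 2.16 and 3.33 in PDGF cells, a difference of -1.19 ± 0.24 (adjusted p = 0.000955). The groups of Slc6a9 and Slc7a7 did not overlap.

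Several lower members were high in PDGF 2 h replicate 1. In that library the authors' adjustment had raised genes of 0.5 to 2 FPKM, and its part in these members' values was not tested. Unnormalised FPKM of the PDGF 2 h libraries were 7.12 ± 4.28 for Slc38a9 and 10.6 ± 4.09 for Slc38a7. They were 2.95 ± 1.35 for Slc38a6 and 1.83 ± 0.65 for Slc1a3 (mean and SD, n = 3 each). Slc38a9 had 0.609, 2.12 and 1.63 FPKM in JQ1 plus PDGF cells, against 3.74, 14.4 and 5.36 in PDGF cells, a difference of -1.71 ± 0.36 (limma, adjusted p = 0.00163). Slc38a6 had 1.33, 0.804 and 1.29 FPKM with JQ1 plus PDGF, against 2.00, 5.91 and 2.16 with PDGF. Its difference of -0.92 ± 0.30 (adjusted p = 0.023) was lost without PDGF 2 h replicate 1 (-0.54, adjusted p = 0.1) or JQ1 plus PDGF 2 h replicate 1 (-0.81, adjusted p = 0.0774). Slc1a3 (EAAT1), a glutamate carrier, was lower, at -0.92 ± 0.31 (adjusted p = 0.0271), and the call was lost without PDGF 2 h replicate 1 (-0.51, adjusted p = 0.108) or JQ1 plus PDGF 2 h replicate 0 (-0.90, adjusted p = 0.0706) or 2 (-0.93, adjusted p = 0.0608). Slc38a7 was lower, at -0.82 ± 0.23, and at -0.50, adjusted p = 0.0493 without PDGF 2 h replicate 1. Slc6a6 (-0.75) and Slc7a6 (-0.56) were also lower. On the median-centred scale Slc38a6 and Slc7a6 were not called (-0.73 and -0.26).

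Higher with JQ1 at 2 h was the creatine carrier gene Slc6a8, with 84.6, 95.4 and 98.1 FPKM in JQ1 plus PDGF cells, against 31.6, 34.7 and 41.6 in PDGF cells. No library overlapped, and the difference was 1.35 ± 0.13 (limma, adjusted p = 1.90e-06). Slc38a3 (SNAT3), a glutamine carrier known from liver and brain, had 1.81, 2.47 and 1.69 FPKM in JQ1 plus PDGF cells, against 0.310, 0.470 and 0.334 in PDGF cells, a difference of 1.12 ± 0.25 (adjusted p = 0.00257) at a low level. Slc38a3 reached 1 FPKM in no library without JQ1. It was therefore tested only because it is high with JQ1, and this p-value describes it and is no support. Slc7a6os was higher by 0.83 ± 0.15 (adjusted p = 0.000557), while its neighbour Slc7a6 was lower.

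The 5 light chain genes that pair with Slc3a2 (Slc7a5, Slc7a6, Slc7a7, Slc7a8 and Slc7a11) were summed and divided by Slc3a2 in each library, as a description of transcripts and not of assembled carriers. The ratio was 1.57, 1.64 and 1.80 in JQ1 plus PDGF 2 h libraries, against 0.842, 1.03 and 0.880 in PDGF 2 h libraries. At 24 h it was 0.675, 0.607 and 0.719 in JQ1 plus PDGF libraries, against 0.482, 0.553 and 0.586 in PDGF libraries. Unstimulated libraries had 0.550 and 0.625. From unnormalised FPKM it was 1.57, 1.63 and 1.80 with JQ1 plus PDGF at 2 h, against 0.853, 0.974 and 0.911 with PDGF. The JQ1 plus PDGF libraries lay above the PDGF libraries at both times. The sum was mostly Slc7a5, which made up 83.3 to 85.3% of it in JQ1 plus PDGF 2 h libraries and 72.8 to 75.6% in PDGF 2 h libraries. The other 4 light chain genes over Slc3a2 gave 0.252 to 0.274 in JQ1 plus PDGF 2 h libraries and 0.215 to 0.278 in PDGF 2 h libraries, which overlapped, so the higher ratio at 2 h was that of Slc7a5 to Slc3a2.

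**Figure D4:**
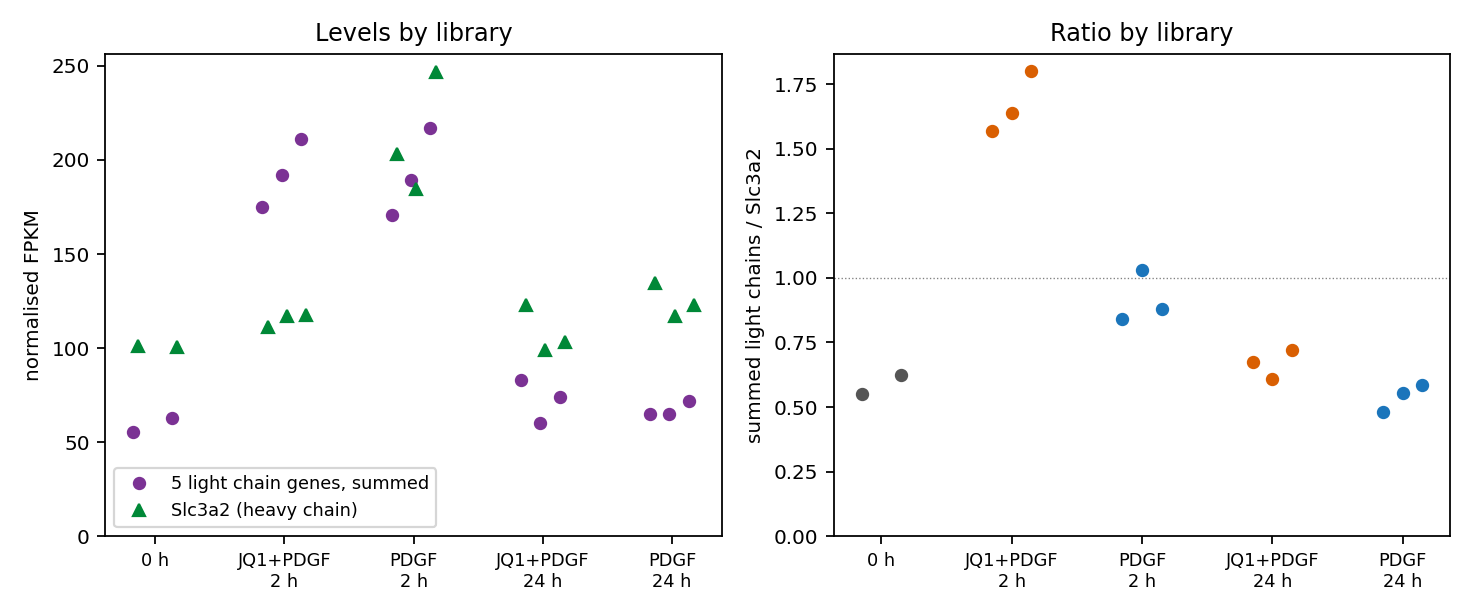
Left, normalised FPKM of the 5 summed light chain genes (circles) and of the heavy chain gene Slc3a2 (triangles) in each library of the 5 groups; right, their ratio, with a dotted line at 1. The JQ1 plus PDGF 2 h libraries had ratios of 1.57 to 1.80, above all other libraries.

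With JQ1 at 24 h the glutamine and cystine exchanger genes were higher, and the facilitative and glycine carrier genes lower. In limma 11 of 26 members were lower in JQ1 plus PDGF than in PDGF cells (42.3%, against 48.5% of all genes tested) and 5 were higher (19.2%, against 4.61%). On the median-centred scale 9 were lower (34.6%, against 25.8% of all genes) and 10 higher (38.5%, against 23.1%). The split thus depended on the scale, for the members and for all genes. The 5 that centring added were Slc38a2 (0.44), Slc3a2 (0.30), Slc7a1 (0.37), Slc7a6 (0.40) and Slc7a8 (0.62). The median was -0.44 for the members and -0.48 for all genes. Between cells with and without JQ1 at 24 h, summed markers of other cell types also differed. The 6 endothelial markers summed to 18 to 24.2 FPKM in JQ1 plus PDGF cells and 120 to 144 in PDGF cells, and the 5 leukocyte markers to 8.03 to 18.4 in JQ1 plus PDGF cells and 50.2 to 73 in PDGF cells. The 5 fibroblast markers summed to 5.54 to 7.51 FPKM in JQ1 plus PDGF cells and 132 to 150 in PDGF cells, and the 3 epithelial markers to 1.89 to 2.58 in JQ1 plus PDGF cells and 31.6 to 36.6 in PDGF cells. Of those tested, 2 of 2 endothelial, 1 of 2 leukocyte, 3 of 3 fibroblast and 1 of 2 epithelial markers were called lower, and so were 8 of 8 smooth muscle markers. The other tested leukocyte marker was called higher. The part of all these cell types in the members' differences was not tested.

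Slc1a5 had 72.1, 56.7 and 66.2 FPKM in JQ1 plus PDGF cells, against 22.4, 21.6 and 28.8 in PDGF cells. The groups were far apart, with a difference of 1.39 ± 0.16 (limma, adjusted p = 3.08e-06). Slc6a8 had 121, 92.0 and 102 FPKM in JQ1 plus PDGF cells, against 54.0, 48.1 and 48.7 in PDGF cells, again without overlap (1.04 ± 0.13, adjusted p = 6.14e-06). Slc7a11 had 4.29, 3.33 and 3.89 FPKM in JQ1 plus PDGF cells, against 1.70, 1.91 and 1.81 in PDGF cells, and was higher by 0.78 ± 0.19 (adjusted p = 0.00322) with no overlap. Slc7a5 had 51.8, 37.9 and 48.3 FPKM with JQ1 plus PDGF, against 34.0, 33.3 and 38.6 with PDGF, overlapping groups with a called difference of 0.36 ± 0.14 (adjusted p = 0.0356). The Slc7a5 call was lost without PDGF 24 h replicate 0 (0.34, adjusted p = 0.095) or 1 (0.32, adjusted p = 0.105), or JQ1 plus PDGF 24 h replicate 0 (0.27, adjusted p = 0.123) or 2 (0.32, adjusted p = 0.111). Slc7a6os was higher by 0.40 ± 0.15 (adjusted p = 0.0384), a call that any of 4 libraries decided: PDGF 24 h replicate 0 (0.42, adjusted p = 0.0701), 1 (0.35, adjusted p = 0.119) or 2 (0.44, adjusted p = 0.0565) and JQ1 plus PDGF 24 h replicate 0 (0.27, adjusted p = 0.152).

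Slc43a1 had 1.26, 0.548 and 0.466 FPKM in JQ1 plus PDGF cells, against 11.6, 7.80 and 7.93 in PDGF cells, a difference of -2.53 ± 0.26 (limma, adjusted p = 8.52e-07). Its relative Slc43a2 had 2.41, 1.72 and 1.56 FPKM in JQ1 plus PDGF cells, against 6.39, 6.50 and 3.75 in PDGF cells (-1.16 ± 0.24, adjusted p = 0.000711). Both facilitative carrier genes were thus lower with JQ1 in every library. Slc7a7 had 1.72, 0.613 and 1.40 FPKM with JQ1 plus PDGF, against 7.91, 7.76 and 7.76 with PDGF (-2.01 ± 0.24, adjusted p = 3.86e-06). Slc6a9 had 13.8, 10.8 and 11.3 FPKM with JQ1 plus PDGF, against 43.9, 40.9 and 42.6 with PDGF (-1.75 ± 0.21, adjusted p = 3.74e-06), so that JQ1 libraries also lay under the unstimulated ones. The cationic carrier gene Slc7a2 had 10.8, 6.44 and 8.63 FPKM with JQ1 plus PDGF, against 26.3, 22.6 and 27.2 with PDGF (-1.48 ± 0.23, adjusted p = 5.59e-05). Slc6a4 had 1.27, 0.217 and 0.217 normalised FPKM with JQ1 plus PDGF, against 3.94, 4.26 and 2.18 with PDGF (-1.54 ± 0.29, adjusted p = 0.000316), and JQ1 plus PDGF replicate 0 was the highest of its group. As said above, Slc6a4 was tested only through its high 24 h libraries, chiefly those of PDGF.

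Among the rest, Slc36a4 had 2.54, 2.04 and 2.09 FPKM in JQ1 plus PDGF cells, against 6.87, 6.85 and 6.61 in PDGF cells (-1.27 ± 0.21, limma adjusted p = 0.000117). Slc38a6 had 4.31, 2.35 and 3.70 FPKM in JQ1 plus PDGF cells, against 7.49, 11.3 and 9.89 in PDGF cells (-1.25 ± 0.30, adjusted p = 0.00259). Neither gene overlapped between the groups. Slc3a1 (rBAT), the heavy chain of the cystine and cationic carrier of kidney and gut, had 2.00, 0.528 and 0.979 FPKM in JQ1 plus PDGF cells, against 4.19, 3.57 and 2.70 in PDGF cells (-1.09 ± 0.31, adjusted p = 0.00741), and was not called on the median-centred scale (-0.64, adjusted p = 0.0501). Its known light chain partner Slc7a9 reached at most 0.177 normalised FPKM. Slc1a3 was lower, at -0.98 ± 0.31 (adjusted p = 0.0157), and without PDGF 24 h replicate 1 the value was -0.89, adjusted p = 0.0539. Slc6a6 was lower, at -0.45 ± 0.16 (adjusted p = 0.0276), a call lost without PDGF 24 h replicate 1 (-0.43, adjusted p = 0.0713) or 2 (-0.42, adjusted p = 0.0791) or JQ1 plus PDGF 24 h replicate 1 (-0.31, adjusted p = 0.148), and its sign turned on the median-centred scale (0.06). Slc38a2, the most abundant member at 24 h, had 155, 125 and 149.8 FPKM in JQ1 plus PDGF cells, against 149.6, 142 and 158 in PDGF cells, with overlapping groups (-0.07 ± 0.12, adjusted p = 0.644). On the median-centred scale its sign turned and it was called higher (0.44, adjusted p = 0.000343).

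The 2 JQ1 comparisons share no library, so their members can be set against each other. Lower at both times were 6 members (Slc1a3, Slc38a6, Slc43a1, Slc6a6, Slc6a9 and Slc7a7), which are 6 of the 12 at 2 h and 6 of the 11 at 24 h. That is 23.1% of the tested members, against 25% of all genes tested. Slc6a8 and Slc7a6os were higher at both times, 2 of the 3 at 2 h and 2 of the 5 at 24 h (7.69% of members, against 1.86% of all genes). Slc6a8 carries creatine, and Slc7a6os does not encode a carrier and lost its 24 h call when some single libraries were left out. Slc7a11 was lower at 2 h and higher at 24 h, as were 0.513% of all genes. In the test of the difference itself, the JQ1 difference at 24 h minus that at 2 h, 4 of 26 members were higher (15.4%, against 4.82% of all genes tested) and 3 lower (11.5%, against 17.5%). Centring gave 9 higher (34.6%, against 13.5% of all genes) and 3 lower (11.5%, against 16.4%). The median was -0.04 for the members and -0.22 for all genes.

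The change between times was widest for Slc7a11, at 1.94 ± 0.27 (limma, adjusted p = 0.000135), the cystine exchanger whose JQ1 libraries lay under PDGF at 2 h and over PDGF at 24 h. It was 1.23 ± 0.23 for Slc1a5 (adjusted p = 0.00112), 0.94 ± 0.23 for Slc7a1 (adjusted p = 0.00755) and 0.65 ± 0.17 for Slc3a2 (adjusted p = 0.011). For Slc7a1 and Slc3a2 the difference was called at 2 h, and at 24 h it was -0.13 and -0.21, neither called. On the median-centred scale both were called higher with JQ1 at 24 h, at 0.37 (adjusted p = 0.0218) for Slc7a1 and 0.30 (adjusted p = 0.00374) for Slc3a2. Slc7a2 was lower with JQ1 at 24 h by more than at 2 h, with -1.18 ± 0.32 (adjusted p = 0.0147). Slc6a4 and Slc43a2 had -1.48 ± 0.40 and -1.01 ± 0.33 (adjusted p = 0.0154 and 0.0401), and both lay under 1 FPKM in every 2 h library. The Slc6a4 call, of a gene tested only through its high 24 h libraries, was lost without JQ1 plus PDGF 24 h replicate 1 (-1.33, adjusted p = 0.0503) or 2 (-1.33, adjusted p = 0.0509). That of Slc43a2 was lost when any of 10 single libraries was left out, with values from -1.05, adjusted p = 0.0563 to -0.90, adjusted p = 0.105. It was kept in 7 of 24 alternatives, and on the median-centred scale the value was -0.57 (adjusted p = 0.112).

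**Figure D5:**
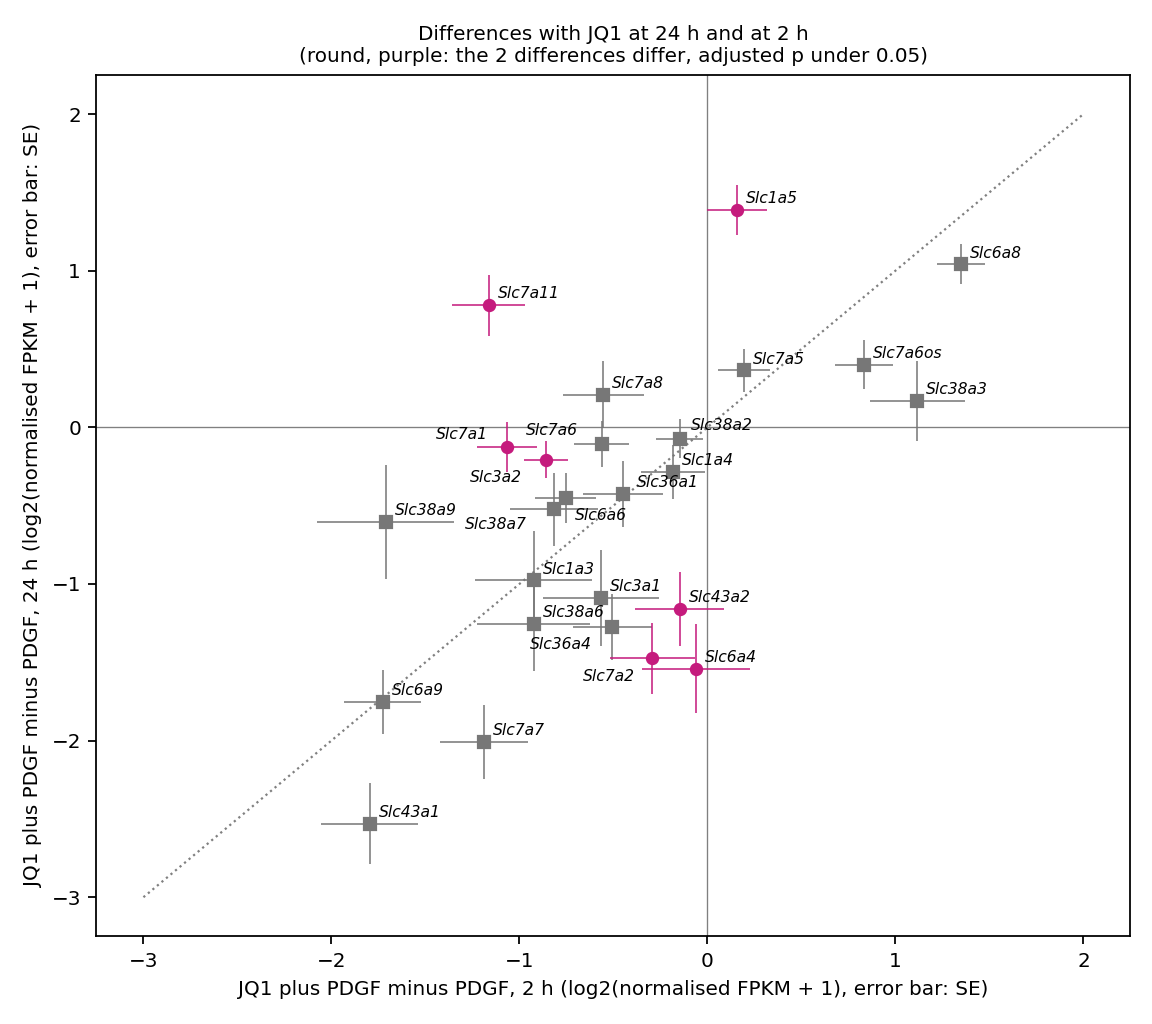
Difference of JQ1 plus PDGF minus PDGF at 2 h (horizontal) and at 24 h (vertical) for the 26 tested members, in log2(normalised FPKM + 1) with SE bars, and a dotted line where both are equal. Round purple points are the 7 members whose differences at the 2 times were called as different, among which Slc7a11 and Slc1a5 lie farthest above the line.

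Centred counts of the gene lists compare with the centred shares of all genes given above for the same comparison. Genes of the amino acid response are ATF4 with its known targets and partners. Of 26 tested, 16 rose (61.5%, against 17.7% of all genes) and 1 fell at 2 h of PDGF, with the transcription factor gene Atf3 at 4.78 ± 0.17, Chac1, a glutathione-degrading enzyme, at 3.19 ± 0.16, Ppp1r15a, which restores translation, at 2.06 ± 0.13 and the pseudokinase gene Trib3 at 1.69 ± 0.26. Against 0 h, 15 rose (57.7%, against 37.7% of all genes) and 1 fell at 24 h, or 6 and 3 on the median-centred scale. Ddit4, an inhibitor of mTORC1, rose by 2.44 ± 0.17 and the alanine aminotransferase gene Gpt2 by 1.77 ± 0.29. With JQ1 at 2 h, 12 were lower (46.2%, against 34% of all genes) and 2 higher, or 9 and 4 when centred. Trib3 (-2.23 ± 0.23), the serine synthesis gene Phgdh (-1.66 ± 0.13) and the mitochondrial serine hydroxymethyltransferase gene Shmt2 (-1.09 ± 0.12) were among those lower. With JQ1 at 24 h, 9 were lower (34.6%, against 48.5% of all genes) and 7 higher (26.9%, against 4.61%), or 5 and 15 on the median-centred scale. Atf3 (3.41 ± 0.16), Ddit3, which encodes the stress factor CHOP (2.74 ± 0.10), and Chac1 (2.01 ± 0.14) were higher, and Vldlr, a lipoprotein receptor gene (-2.20 ± 0.14), was lower. The JQ1 difference was higher at 24 h than at 2 h for 13 of these genes (50%, against 4.82% of all genes) and lower for 4, with Atf3 at 3.15 ± 0.22 and Trib3 at 3.10 ± 0.33.

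Genes of lysosomal amino acid sensing by mTORC1 were lower at 2 h of PDGF in 9 of 28 cases (32.1%, against 12.7% of all genes) and higher in 2, with Sesn1, which encodes a sestrin, at -1.53 ± 0.29 and Flcn, the folliculin gene, at -1.37 ± 0.16. At 24 h against 0 h, 13 of 28 were higher (46.4%, against 37.7%), or 3 higher and 1 lower on the median-centred scale, led by Sesn3 at 2.62 ± 0.22. With JQ1, 9 were lower and 2 higher at 2 h, and 9 were lower at 24 h. These shares lower of 32.1% were near the 34% of all genes at 2 h and under the 48.5% of all genes at 24 h. When centred, 4 were lower and 8 higher at 2 h, and 3 lower and 9 higher at 24 h. Rragd, a Rag GTPase gene, was lower at both times (-1.23 ± 0.21 at 2 h and -1.74 ± 0.21 at 24 h). Sesn3 was higher at 2 h (1.03 ± 0.19) and lower at 24 h (-1.82 ± 0.19).

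Of 20 tested genes of glutamine, glutathione and branched-chain amino acid use, 7 rose (35%, against 17.7% of all genes) and 2 fell at 2 h of PDGF. At 24 h 10 rose (50%, against 37.7%) and 1 fell, or 9 and 5 when centred. Bcat1, the cytosolic branched-chain aminotransferase gene, rose by 1.94 ± 0.14 at 2 h, and Gss, the glutathione synthetase gene, by 2.18 ± 0.15 at 24 h against 0 h. Gclc, which encodes the rate-limiting enzyme of glutathione synthesis, was higher with JQ1 at 2 h (1.99 ± 0.13) and at 24 h (2.12 ± 0.13). With JQ1, 7 of these genes were lower (35%, against 34% of all genes) and 5 higher at 2 h, or 4 and 10 when centred. At 24 h 9 were lower (45%, against 48.5%) and 4 higher, or 4 and 8 when centred. Bcat2, the mitochondrial aminotransferase gene, was lower at 24 h (-2.34 ± 0.17), as were the gamma-glutamyltransferase family gene Ggt5 (-1.62 ± 0.40) and the arginase gene Arg1 (-1.53 ± 0.26). Of 11 tested amino acid carriers outside the member families, 2 fell at 2 h of PDGF (18.2%, against 12.7% of all genes) and 3 rose at 24 h against 0 h (27.3%, against 37.7%), or 1 when centred, among them Ctns, the lysosomal cystine exporter gene (1.31 ± 0.28). With JQ1 1 was lower and 1 higher at 2 h (9.09% each, against 34% and 7.24% of all genes), with Ctns at -1.08 ± 0.25. At 24 h 2 were lower (18.2%, against 48.5%) and 1 higher, but none lower and 4 higher when centred.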

How the data were processed

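Per the file headers and the submitters' processing notes, the authors deposited 2 tables of FPKM with 1 column per library: unnormalised FPKM and normalised FPKM. The notes name HISAT, Cufflinks 2.0.0 and build rn6; the annotation and the method of normalisation are not given in the sources used here. Judged from the values, the normalised FPKM are the unnormalised ones moved along a curve per library so that the 92 spike-ins meet. Columns were put in 5 groups by name. They end in digits and the titles in letters, so a library goes by its group and the digit. Genes with at least 1 normalised FPKM in at least 2 libraries were tested (10133), on log2(normalised FPKM + 1), with limma 3.58.1 (R 4.3.3), 9 residual degrees of freedom and a mean trend, and Benjamini-Hochberg adjustment over all of them. No count model suits FPKM, and the unknown depth gives no interval for low values. For the median-centred scale, the unnormalised FPKM were divided by median-ratio size factors, and 9980 genes were tested. The code was tested on simulated data, with changes put only into genes above a low level. It recovered 97 to 99% of 4-fold changes and 19 to 37% of 1.5-fold changes, with 6 to 10 false calls. A member that was not called may therefore still differ by a modest amount. The members, gene lists, motif and tests were chosen with earlier results of these data known. Members called with a difference of at least 1 in size in some comparison are given with every library. Listed genes are named from the 4 that changed most per list and comparison. Promoter sequences are from RefSeq (GRCr8); no rn6 coordinates are printed. Listed genes with no feature were not analysed here.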

Additional observations from a re-analysis of the deposited data

Results flagged for a closer look

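For 7 members the difference between JQ1 plus PDGF and PDGF cells was not the same at 24 h as at 2 h, by the limma test of that difference itself (JQ1 difference at 24 h minus JQ1 difference at 2 h, in log2(normalised FPKM + 1)). It was 1.94 for Slc7a11, 1.23 for Slc1a5, 0.94 for Slc7a1 and 0.65 for Slc3a2, all higher at 24 h. It was -1.18 for Slc7a2, -1.48 for Slc6a4 and -1.01 for Slc43a2, all lower at 24 h. In every library of Slc7a11, JQ1 plus PDGF lay under PDGF at 2 h and over it at 24 h. The call of Slc43a2 was kept in 7 of 24 alternatives, and its value was -0.57 (adjusted p = 0.112) on the median-centred scale. The difference of Slc6a4 was -2.41 with a pseudocount of 0.1 and was then not called.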

How the results depend on the processing

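Of 80 called differences of members, 55 kept their call and direction in all alternatives that gave a value, 25 lost the call in at least 1, and 20 lost it without some single library; of 76 uncalled differences, 35 were called in at least 1 alternative. The scale mattered most. On the median-centred scale and on unnormalised FPKM alike, 10 members were higher with JQ1 at 24 h (5 as reported), 5 higher with JQ1 at 2 h (3), 9 higher for the JQ1 difference between times (4), and 6 higher and 5 lower with PDGF at 24 h against 0 h (12 and 1). The JQ1 difference at 24 h changed sign there for Slc38a2 (0.44 centred, 0.43 unnormalised), Slc3a2 (0.30 and 0.30), Slc6a6 (0.061 and 0.057), Slc7a1 (0.37 and 0.37) and Slc7a6 (0.40 and 0.39). Members lower for the JQ1 difference between times numbered 1 with a pseudocount of 0.1 or a filter at 5 FPKM, and 5 without a mean trend (3 as reported). With JQ1 at 24 h 3 were higher without a mean trend or without both PDGF 2 h replicate 1 and PDGF 24 h replicate 0. With PDGF at 24 h 3 were lower without a filter, and with PDGF at 2 h 1 was lower when only the groups compared were fitted (2 as reported). With only those groups fitted, the calls of Slc1a5, Slc38a2 and Slc7a6 with PDGF at 2 h, of Slc7a6os with PDGF at 24 h, of Slc36a4 at 24 h against 2 h, of Slc1a3, Slc38a6 and Slc38a7 with JQ1 at 2 h and of Slc43a2 between times were lost. A pseudocount of 5 ended those of Slc38a6 with JQ1 at 2 h and Slc1a3 with JQ1 at 24 h. The cause was not tested.

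Leaving out each replicate in turn, a lone remaining unstimulated library being assumed to vary like the other groups, gave 8 to 9 higher and 1 to 3 lower for PDGF at 2 h, 8 to 13 and 1 to 1 for PDGF at 24 h, and 9 to 12 and 7 to 7 for 24 h against 2 h. With JQ1 it gave 3 to 3 higher and 11 to 15 lower at 2 h, 3 to 5 and 9 to 12 at 24 h, and 4 to 5 and 1 to 4 for the difference between times. No paired analysis was possible because the columns carry digits and not the letters of the titles. Depth is unknown, so values under 1 FPKM, which 9 tested members had in some library, carry no counting error.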
